A study of Mus musculus with 16 samples.

Results

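The growth hormone receptor and insulin-like growth factor axis was followed through 9 genes: Ghr, Socs2, Igf1, Igfals, Igf1r, Igfbp1, Igfbp2, Igfbp3 and Igfbp4. They were chosen by symbol among the 19505 genes named on an Affymetrix mouse array, and each had 1 of its 22206 probe sets. Expression was measured in liver and in eWAT, a white fat depot as the labels name it, of male C57BL/6J mice (an inbred laboratory strain) at the age of 14 weeks. Control offspring (CT) had 2 control parents, and their fathers had eaten chow. The offspring called F1 had a control mother and an obese father that had eaten a diet with 45% lipids for 12 weeks, starting when 8 weeks old. Each tissue had 4 CT and 4 F1 libraries, which the labels number as biological replicates, so that Liver F1 3 is replicate 3 of the F1 livers. How many fathers and litters stood behind a group, and what the offspring ate, are not stated in the labels. A p-value therefore covers the variation among libraries, and littermates would count as separate. The values are log2 expression levels, and the number of arrays limits their precision. A gene is said to have passed where its adjusted p was under 0.05 in limma, a linear model fitted over all genes, and to have been kept where it was bright enough to be tested.

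Growth hormone (GH) from the pituitary binds the receptor Ghr, which works through the kinase Jak2 and the transcription factor Stat5b, and the liver answers by making the hormone Igf1. In blood most Igf1 travels in a complex with Igfbp3 and the acid-labile subunit Igfals, while the other binding proteins carry smaller amounts and hold Igf1 away from its receptor, Igf1r. Igfbp1 is made in hepatocytes and is known to fall with insulin and to rise with fasting. Socs2 and its relative Cish are made in response to Stat5 and dampen signalling from Ghr.

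In liver the hepatocyte marker list had a median level of 19.87 to 19.93 in each library, and in eWAT the adipocyte list had 17.3 to 17.87. Alb, Apoa1, Apoa2, Serpina1a and Ahsg of the hepatocyte list were at 19.93, the highest value in the table, in each liver. The list median therefore cannot show whether hepatocyte content differed between livers. Some libraries also held transcripts of other tissues. In Liver F1 4, 17 of 17 exocrine pancreas genes were above the 25th percentile of all values, with a list median of 10.77 against 4.04 to 4.61 in the other livers. It is called the liver with pancreas transcripts below. A weaker signal was seen in Liver CT 2, where 15 of 17 were above that percentile. Its Amy2a5, a pancreatic amylase, was at 9.79 against 4.96 to 6.79 in the livers other than F1 4. Liver F1 1 and F1 2 had skeletal muscle medians of 4.70 and 4.75 against 3.74 to 3.85 in the other livers. This signal was faint, since both medians lay below the libraries' own medians of 5.23 and 5.22. In both, 0 of 14 muscle genes were at 8 or more. These 2 are called the livers with muscle transcripts below. They are left out of some fits, but whether the muscle transcripts bear on any difference was not tested. In eWAT the muscle median was highest in CT 1 and CT 4, at 4.18 and 4.125 against 3.31 to 3.78 in the other libraries. The hepatocyte median in eWAT ran from 7.17 to 15.52, and eWAT F1 1 alone held seminal vesicle transcripts, with Svs2, a seminal vesicle protein, at 16.22 against 2.47 to 4.88 in the other 7. These are bulk samples, in which fewer cells of a type and less RNA per cell cannot be told apart.

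In liver, none of the 9 genes passed the test between F1 and CT offspring at an adjusted p under 0.05 (limma), against 0.157% of the 14683 genes tested. At an unadjusted p under 0.05 there were 3 of 9, against 9.15% of all genes tested. They were Igfbp1, lower in F1, and Igfals and Igfbp4, higher in F1. The groups did not overlap for 0 of 9 members, against 5.38% of all genes. The median difference was 0.13 over the members and -0.0025 over all genes tested, and the median absolute difference was 0.385 against 0.1725. Without the 2 livers that held muscle transcripts, 0 of 9 members had an unadjusted p under 0.05. That fit rests on fewer F1 livers than the main one, and its share of all genes under 0.05 is not given. The lower count therefore cannot be read as a result about the members in particular.

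**Figure D1:**
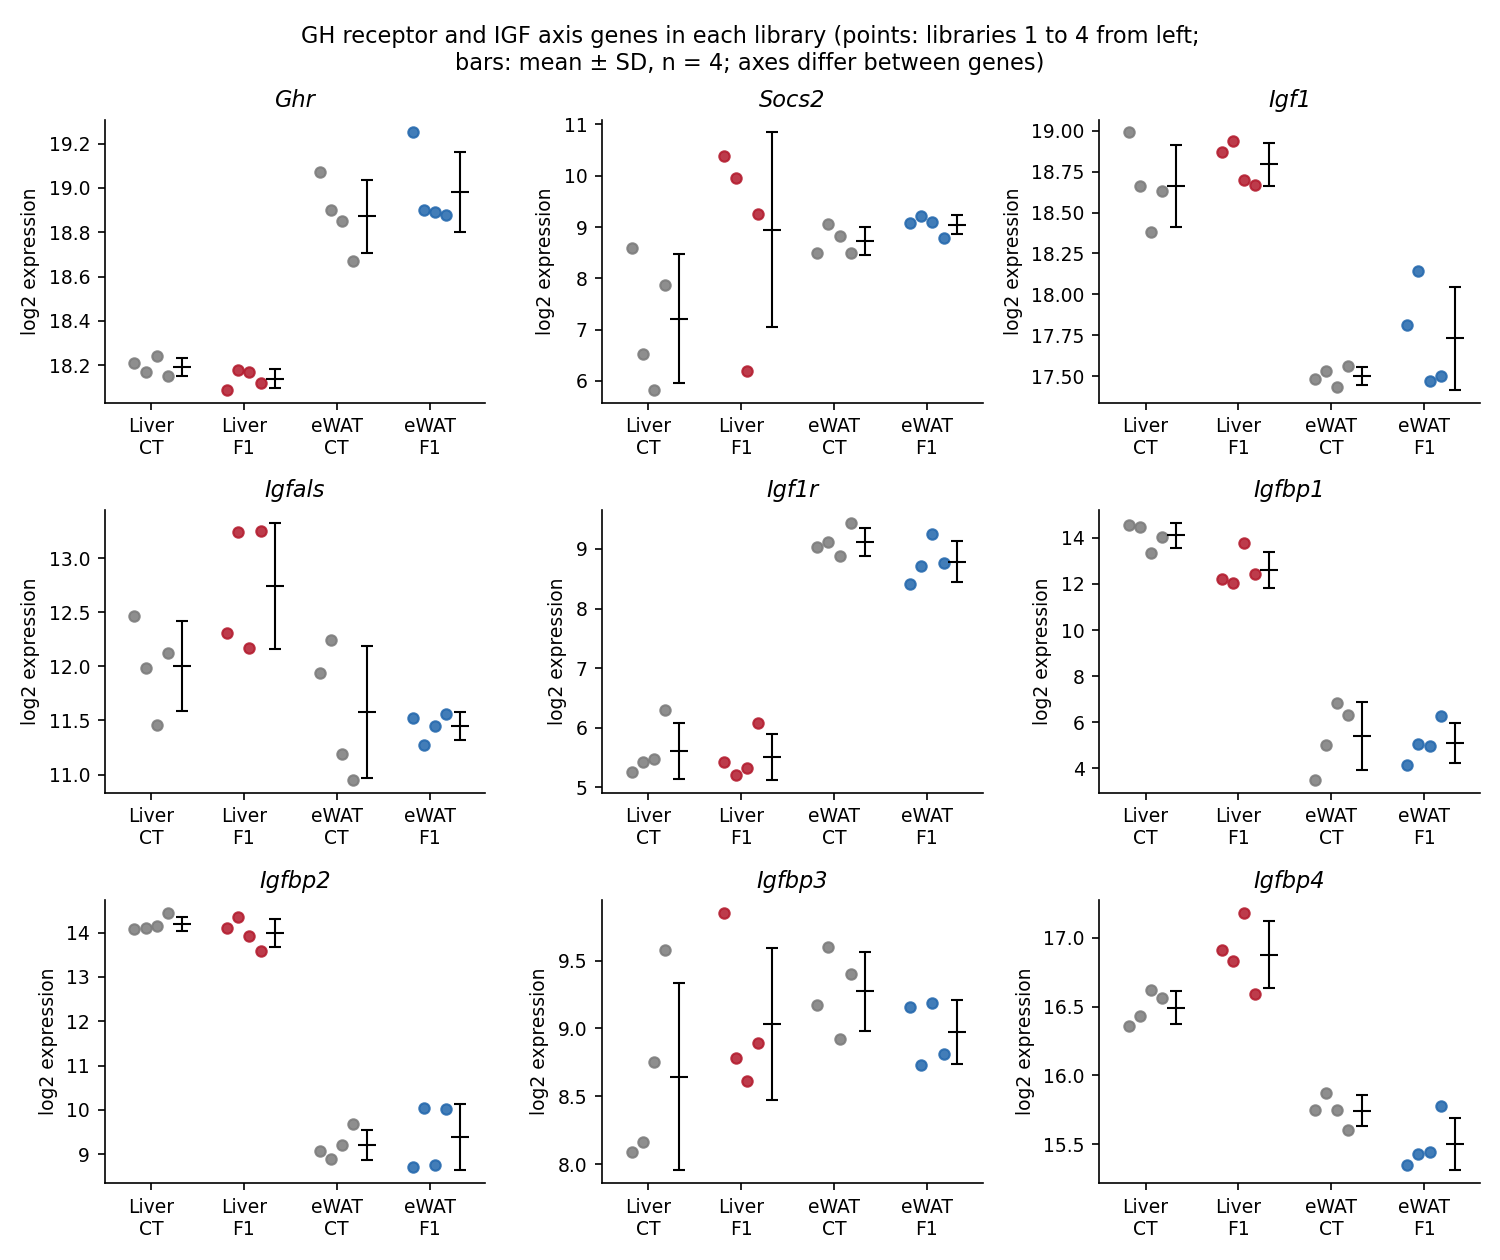
Log2 expression (vertical axis, its range differing between genes) of the 9 genes in the 16 libraries, with the mean and SD of each group of 4 beside its points. In liver, Igfbp1 of F1 3 (13.76) lies among the CT values while the other F1 livers lie at 12.04 to 12.43, and Socs2 spreads from 5.83 to 10.39.

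Ghr, the receptor itself, was at 18.21, 18.17, 18.24 and 18.15 in the CT livers and at 18.09, 18.18, 18.17 and 18.12 in the F1 livers. The groups overlapped and differed by -0.05 (95% interval -0.33 to 0.23; limma adjusted p = 0.945). These levels lie at the 99.5th percentile or above of each liver library, close to the highest value in the table, 19.93.

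Igf1 was at 18.99, 18.66, 18.38 and 18.63 in CT livers and at 18.87, 18.94, 18.70 and 18.67 in F1 livers. All 4 F1 values lay within the CT range, and the difference was 0.13 (95% interval -0.24 to 0.50; limma adjusted p = 0.871). Its level too was above the 99.5th percentile in each liver.

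Igfals, which prolongs the life of Igf1 in blood, was at 12.46, 11.98, 11.46 and 12.12 in CT livers. In F1 livers it was at 12.31, 13.24, 12.17 and 13.25. F1 2 and F1 4 stood above every CT liver, while F1 1 and F1 3 lay inside the CT range. The difference was 0.74 ± 0.30 (SE), a 1.67-fold higher level (limma adjusted p = 0.507). Of the high livers, F1 2 held muscle transcripts and F1 4 pancreas transcripts. The difference was 0.57 without F1 2 alone and likewise 0.57 without F1 4 alone, and 0.71 without F1 1 and F1 2.

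Igf1r, the receptor for Igf1, lay at 5.26 to 6.30 in CT and at 5.21 to 6.08 in F1 livers. The difference of -0.10 ± 0.27 (SE; limma adjusted p = 0.949) was smaller than its error.

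Igfbp1 had the smallest p of the 9 in liver, at rank 196 of 14683 genes. It was at 14.54, 14.47, 13.35 and 14.05 in CT livers and at 12.21, 12.04, 13.76 and 12.43 in F1 livers. F1 1, F1 2 and F1 4 stood below every CT liver, whereas F1 3 lay above CT 3, so the groups overlapped. The mean was 14.10 ± 0.55 (SD, n = 4) in CT and 12.61 ± 0.78 (SD, n = 4) in F1. The difference was -1.49 ± 0.39 (SE; 95% interval -2.36 to -0.62), a 2.81-fold lower level (limma adjusted p = 0.253). The difference lay between -1.88, without F1 3 (adjusted p = 0.0864), and -1.30, without F1 2. It was -1.01 (adjusted p = 0.610) without F1 1 and F1 2, the livers with muscle transcripts. Those livers had the lowest Igfbp1 values, so leaving them out makes the difference smaller in any case.

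The stretch upstream of Igfbp1 is shown because it holds the paired element through which insulin is known to lower this gene. The 180 bases before the transcript start, chr11:7197607-7197786 on the plus strand of GRCm38.p6 (RefSeq), were searched for the insulin response core CAAAACA or CAAAATA on both strands. Capitals mark the matches, the second being on the other strand.
Igfbp1: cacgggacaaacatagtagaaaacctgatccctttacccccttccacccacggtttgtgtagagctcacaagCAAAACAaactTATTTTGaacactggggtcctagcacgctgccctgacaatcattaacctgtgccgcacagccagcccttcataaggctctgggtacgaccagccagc
The core was found in 10.2% of the 32851 RefSeq promoter windows (250 bases before to 50 after each start). Among the 8 members with a window, Igfbp1 was the 1 that held it. The arrays do not measure binding at these letters.

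Igfbp2, a binding protein made in liver, lay at 14.07 to 14.44 in CT and at 13.59 to 14.34 in F1 livers (difference -0.20 ± 0.19, SE; limma adjusted p = 0.803). Igfbp3, which non-hepatocyte cells of the liver are known to make, lay at 8.09 to 9.58 in CT and at 8.61 to 9.85 in F1 livers. Its difference was 0.39 ± 0.37 (SE; limma adjusted p = 0.809). Both genes' groups overlapped.

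Igfbp4, a binding protein that is cut by the protease Pappa, was at 16.36, 16.43, 16.62 and 16.56 in CT livers. In F1 livers it was at 16.91, 16.83, 17.18 and 16.59. F1 4 lay among the CT livers and the other 3 F1 livers above them. The difference was 0.39 ± 0.16 (SE), a 1.31-fold higher level (limma adjusted p = 0.513).

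Socs2 varied more between livers than the other members. It was at 8.60, 6.53, 5.83 and 7.88 in CT and at 10.39, 9.96, 6.20 and 9.25 in F1. The 3 F1 livers other than F1 3 stood above every CT liver, and F1 3 lay below CT 1, CT 2 and CT 4. The mean was 7.21 ± 1.26 (SD, n = 4) in CT and 8.95 ± 1.89 (SD, n = 4) in F1. The difference of 1.74 ± 0.89 (SE; 95% interval -0.25 to 3.73) did not pass the test (limma adjusted p = 0.612). It was 2.66 without F1 3 (adjusted p = 0.214), 1.26 without F1 1 and 0.52 without F1 1 and F1 2, the livers with muscle transcripts (adjusted p = 0.932). F1 1 and F1 2 had the highest Socs2 values, so leaving them out makes the difference smaller in any case.

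Cish, the other Stat5-induced inhibitor, was at 8.61, 5.17, 4.15 and 6.97 in CT livers and at 9.51, 9.53, 5.51 and 5.68 in F1 livers. CT 1, F1 1 and F1 2 were the highest livers for Cish, and CT 3 was the lowest for both Cish and Socs2. The difference of 1.33 ± 1.17 (SE; limma adjusted p = 0.796) was within the spread, and without F1 1 and F1 2, the livers with muscle transcripts, it turned to -0.63 (adjusted p = 0.925).

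Socs2 was set against 20 genes of GH receptor signalling and GH-patterned transcription over the 8 livers, a comparison chosen after its spread had been seen. Foxa2, a hepatocyte transcription factor, followed it with Pearson's r = 0.919 (exact permutation p = 0.00131, adjusted over the 20 p = 0.0263). Spearman's rho was 0.857 (exact permutation p = 0.0107, adjusted p = 0.107). The correlation was 0.89 without CT 3 and F1 1, the livers farthest from the median, and 0.873 without the livers with muscle transcripts. For Cish, r was 0.853 (exact permutation p = 0.0142, adjusted p = 0.142) and rho 0.881 (exact permutation p = 0.00724, adjusted p = 0.107), and r was 0.72 without CT 3 and F1 1 and 0.662 without the livers with muscle transcripts. Taken about each group's own mean, r was 0.888 for Foxa2 and 0.843 for Cish.

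**Figure D2:**
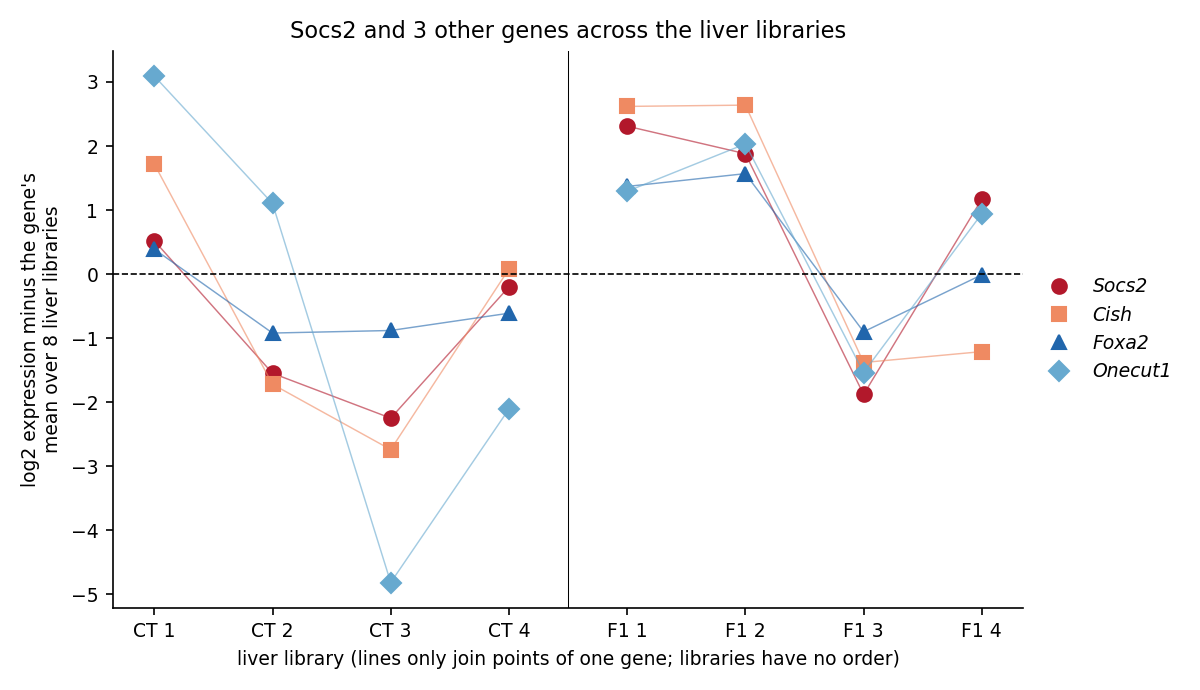
Log2 expression minus each gene's mean over the 8 livers (vertical axis) for Socs2, Cish, Foxa2 and Onecut1 in each liver library (horizontal axis). Socs2 and Cish are both above their means in CT 1, F1 1 and F1 2 and both below in CT 2, CT 3 and F1 3. In F1 4 Socs2 (9.25) is above and Cish (5.68) below, and in CT 4 Socs2 (7.88) is just below and Cish (6.97) just above.

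The Stat5 core TTCNNNGAA, which reads the same on both strands, was searched in the same promoter windows because Stat5 carries the GH signal to its target genes. It was found in 8.30% of the 32851 windows and, among the 8 members with a window, in Igfals alone. Igfals held it in windows of 2 transcript starts, and Cish held 2 copies at its start. The runs are chr17:24877598-24877627 and chr17:24878163-24878192 for Igfals and chr9:107296654-107296683 for Cish, on the plus strand of GRCm38.p6, with the core in capitals.
Igfals, first window: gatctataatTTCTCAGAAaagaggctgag
Igfals, second window: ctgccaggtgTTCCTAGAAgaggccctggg
Cish: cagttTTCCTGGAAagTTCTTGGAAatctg
A match is a description of these letters only. The Socs2 promoter was not analysed here.

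Around the receptor, 14 of 15 measured genes of GH receptor signalling and feedback were kept in the liver fit. Stat3, a transcription factor that GH and interleukin-6 receptors activate, rose, and 0 fell, against 0.157% of all genes passing in either direction. Stat3 was at 11.99, 11.84, 11.47 and 11.40 in CT and at 13.19, 13.28, 12.88 and 12.75 in F1 livers, so the groups were separate. It rose by 1.35 ± 0.19 (SE), or 2.55-fold (limma adjusted p = 0.0334). It passed in 9 of 17 alternative fits. Leaving out CT 2, CT 3, CT 4, F1 1, F1 2 or F1 3 put its adjusted p at 0.0864 to 0.118, and without the livers with muscle transcripts the difference was 1.14 (adjusted p = 0.212).

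Lepr, the leptin receptor, was lower in F1 livers without passing (difference -1.25 ± 0.20, SE; limma adjusted p = 0.0539). Its groups were separate, at 6.97 to 7.39 in CT and 5.61 to 6.38 in F1, and it passed in 5 of 17 alternative fits. Socs3, the feedback inhibitor induced by Stat3, was at 4.18 to 5.02 in CT and at 5.04 to 7.60 in F1 livers (difference 1.33 ± 0.48, SE; limma adjusted p = 0.454), and its difference was 0.65 without the livers with muscle transcripts. Stat5b, the main carrier of the GH signal, had a difference of -0.32 ± 0.25 (SE; limma adjusted p = 0.764). The median difference of the list was 0.07. Of the 6 GH-patterned liver transcription factors 0 passed, with a median of 0.26, and Foxa2 had a difference of 1.01 ± 0.53 (SE; limma adjusted p = 0.622), which was 0.05 without the livers with muscle transcripts. Onecut1, Tox and Trim24 had differences of 1.36, -0.41 and 0.36 (limma adjusted p = 0.843, 0.674 and 0.822). For Onecut1 it was -0.013 without CT 3, and for Trim24 -0.037 without F1 3.

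Of the 12 genes for IGF ligands, receptors and docking proteins, 0 passed the test in liver, against 0.157% of all genes, 3 had an unadjusted p under 0.05, against 9.15%, and the median difference was -0.07. Irs1, which docks to the active insulin and Igf1 receptors, was at 10, 10.19, 10.47 and 10.60 in CT livers and at 9.39, 8.72, 8.52 and 9.63 in F1 livers. Every F1 liver stood below every CT liver, but the difference of -1.25 ± 0.26 (SE) did not pass (limma adjusted p = 0.144). It passed in 2 of 17 alternative fits. The difference was -0.61 ± 0.21 (SE; limma adjusted p = 0.426) for Grb10, an inhibitor of the same receptors. It was 0.49 ± 0.16 (SE; limma adjusted p = 0.387) for the kinase Akt1 and -0.42 ± 0.23 (SE; limma adjusted p = 0.644) for Irs2, the other main docking protein of liver, and for Irs2 it was -0.20 without the livers with muscle transcripts.

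Of the known regulators of Igfbp1, 11 were kept in liver and 0 passed. Atf4, a stress-response transcription factor, was the 1 with an unadjusted p under 0.05, against 9.15% of all genes (difference -0.82 ± 0.33, SE; limma adjusted p = 0.502). Foxo3, of the family that binds the insulin response element, had a difference of 0.64 ± 0.37 (SE; limma adjusted p = 0.661). That rested on F1 3, at 12.33 against 10.45 to 10.90 in the other F1 livers, and the difference was 0.22 without it. Hnf4a, a hepatocyte transcription factor, and Fgf21, a fasting hormone, had differences of 0.28 and -0.54 (limma adjusted p = 0.630 and 0.674). Of the other proteins with an IGF-binding domain or partner role, 5 were kept and 0 passed, and Ccn1, a matrix protein, had a difference of -0.90 ± 0.38 (SE; limma adjusted p = 0.513), or -0.45 without the livers with muscle transcripts. Igfbp7, Igfbp5 and Ccn2 had differences of 0.41, -0.34 and -0.55 (limma adjusted p = 0.692, 0.718 and 0.855). Of the proteases that cut the binding proteins and their inhibitors, 5 were kept and 0 passed. Klk1, a kallikrein that the pancreas also makes, was at 8.23 in F1 4, the liver with pancreas transcripts, and at 4.26 to 4.99 in the others. Its difference of 0.87 (limma adjusted p = 0.789) was -0.058 without F1 4, and those of Mmp7, Stc1 and Stc2 were -0.20, 0.055 and 0.037 (limma adjusted p = 0.852, 0.953 and 0.970).

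In eWAT none of the 9 genes passed the test between F1 and CT, and the same held for the 14629 genes tested (0%). None of the 9 had an unadjusted p under 0.05 either, against 10% of all genes, and the groups did not overlap for 0 of 9, against 5.95%. The largest differences among the 9 were -0.34 for Igf1r and 0.32 for Socs2. The median difference was -0.13 over the members and -0.0025 over all genes tested.

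**Figure D3:**
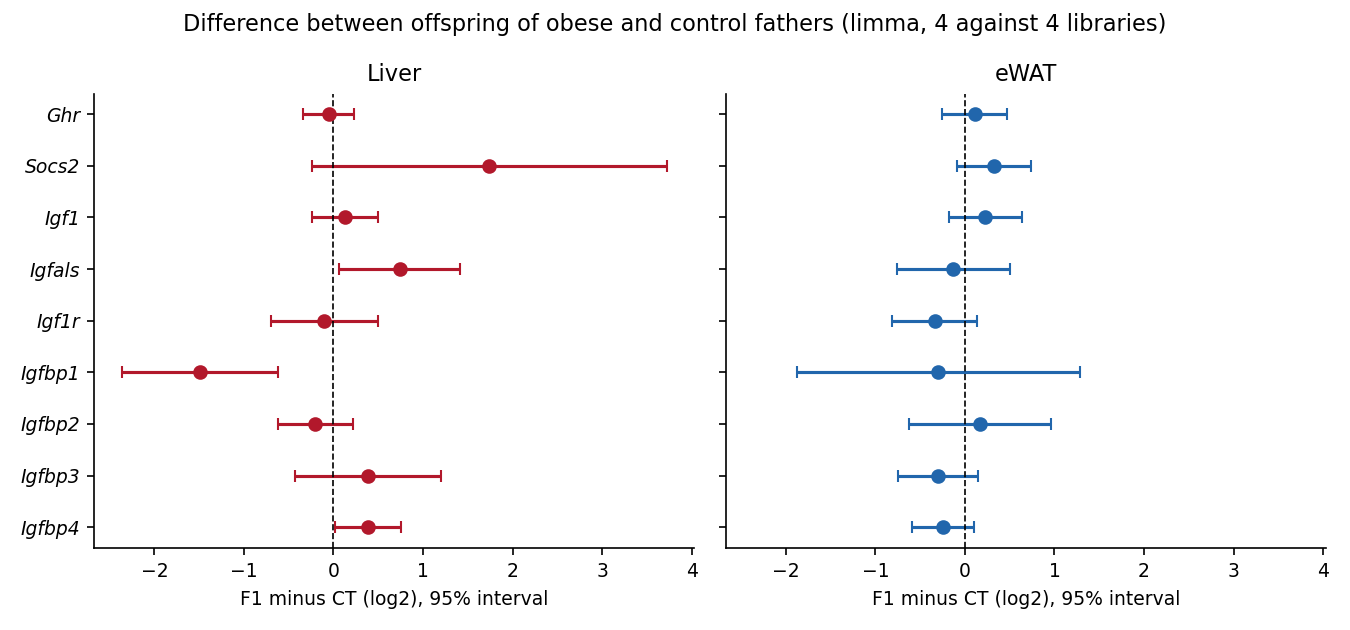
Difference in log2 expression between F1 and CT offspring (horizontal axis, points) with its 95% interval from limma (bars) for the 9 genes in liver and in eWAT. In liver the interval of Igfbp1 (-2.36 to -0.62) lies below 0 and that of Socs2 (-0.25 to 3.73) is the widest, while in eWAT each of the 9 intervals spans 0.

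Ghr in eWAT was at 19.07, 18.90, 18.85 and 18.67 in CT and at 19.25, 18.90, 18.89 and 18.88 in F1. The high F1 value belonged to F1 1, the library with seminal vesicle transcripts. The difference was 0.11 ± 0.16 (SE; limma adjusted p = 0.836).

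Igf1 was at 17.48, 17.53, 17.43 and 17.56 in CT fat and at 17.81, 18.14, 17.47 and 17.50 in F1 fat. F1 1 and F1 2 stood above the CT values and the other F1 libraries among them (difference 0.23 ± 0.18, SE; limma adjusted p = 0.687). Igf1r was at 9.04, 9.12, 8.88 and 9.44 in CT and at 8.41, 8.71, 9.25 and 8.77 in F1 fat, with a difference of -0.34 ± 0.21 (SE; limma adjusted p = 0.621). The 95% interval ran from -0.81 to 0.14, and F1 3 lay among the CT libraries.

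Socs2 in fat was at 8.50 to 9.06 in CT and at 8.79 to 9.22 in F1, a far narrower spread than in liver (difference 0.32 ± 0.18, SE; limma adjusted p = 0.583). Among 18 signalling and transcription genes set against it over the 8 eWAT libraries, Sh2b1, an adaptor of Jak2, followed it with r = 0.953 and rho = 0.964. The adjusted exact permutation p was 0.00357 for r and 0.0107 for rho, and r was 0.873 without CT 1 and CT 4. Cish did not pass in eWAT (r = 0.282, rho = 0.383, adjusted exact permutation p = 0.938 and 0.854).

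Igfbp1 and Igfbp2, both made by hepatocytes, are given for eWAT beside the hepatocyte transcripts of each library. Igfbp1 was at 3.5, 5.0, 6.82 and 6.32 in CT and at 4.17, 5.04, 4.99 and 6.26 in F1 fat. CT 3, CT 4 and F1 4, its highest libraries, had hepatocyte medians of 14.09, 14.03 and 15.52, against 7.17 and 8.66 in CT 2 and CT 1. F1 2, with a median of 14.49, had Igfbp1 at 5.04. Igfbp2 was at 10.04 and 10.02 in F1 2 and F1 4, whose hepatocyte medians were 14.49 and 15.52, and at 8.71 and 8.77 in F1 1 and F1 3. The difference between F1 and CT was -0.30 ± 0.70 (SE; limma adjusted p = 0.908) for Igfbp1 and 0.17 ± 0.35 (SE; limma adjusted p = 0.890) for Igfbp2. Without the 4 hepatocyte-rich libraries, those with a median of 14 or more, they were 0.33 and -0.25. In the libraries left, the hepatocyte median was 8.66 and 7.17 in CT 1 and CT 2. It was 11.72 and 11.29 in F1 1 and F1 3. Leaving out the hepatocyte-rich libraries, here and below, therefore did not even out the hepatocyte transcripts between the groups.

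Over the 8 eWAT libraries the hepatocyte median was set against each of the 9 genes, and 0 of 9 correlations passed after adjustment. For Igfbp2, r was 0.724 and rho 0.738 (exact permutation p = 0.0491 and 0.0458, adjusted p = 0.147 and 0.206), and r was 0.916 without CT 1 and CT 2. For Igfbp1, r was 0.677 and rho 0.643 (exact permutation p = 0.0698 and 0.0962, adjusted p = 0.157 and 0.288). For Igfals, r was -0.83 and rho -0.524 (exact permutation p = 0.0112 and 0.197, adjusted p = 0.101 and 0.401). That relation rests on CT 1 and CT 2, since r was -0.25 without them. For Igfbp3, r was -0.728 and rho -0.81 (exact permutation p = 0.042 and 0.0218, adjusted p = 0.147 and 0.196), and r was -0.562 without those libraries.

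**Figure D4:**
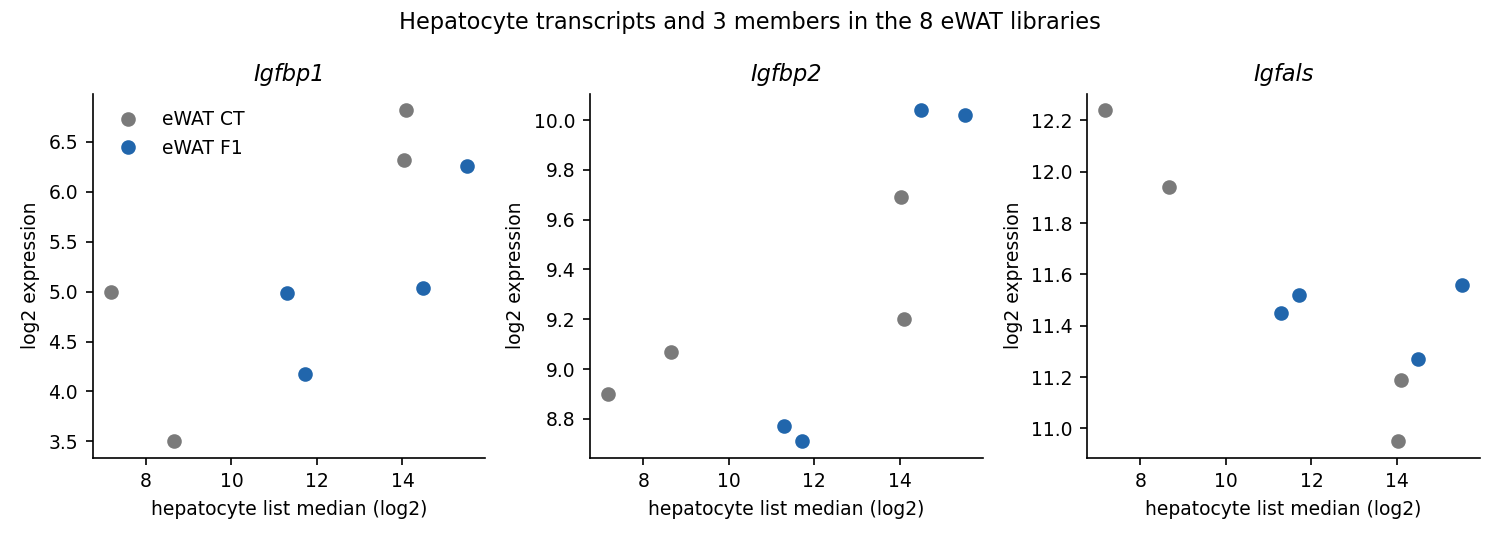
Log2 expression of Igfbp1, Igfbp2 and Igfals (vertical axes) against the median log2 level of 13 hepatocyte genes (horizontal axes) in the 8 eWAT libraries, coloured by group. The 3 highest Igfbp1 values (6.26 to 6.82) and the 2 highest Igfbp2 values (10.02 and 10.04) lie at hepatocyte medians of 14.03 to 15.52, and Igfals is highest in CT 1 (11.94) and CT 2 (12.24), which have the lowest medians.

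Igfals itself was at 11.94, 12.24, 11.19 and 10.95 in CT and at 11.52, 11.27, 11.45 and 11.56 in F1 fat (difference -0.13 ± 0.28, SE; limma adjusted p = 0.895). Igfbp3, at 8.92 to 9.60 in CT and 8.73 to 9.19 in F1, differed by -0.30 ± 0.20 (SE; limma adjusted p = 0.638). Igfbp4, at 15.60 to 15.87 in CT and 15.35 to 15.78 in F1, differed by -0.24 ± 0.15 (SE; limma adjusted p = 0.625).

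In the lists around the axis, 0 genes passed in eWAT. Of GH receptor signalling and feedback 14 genes were kept, none with an unadjusted p under 0.05, and the phosphatase Ptpn6 had the smallest p (difference -0.61 ± 0.29, SE; limma adjusted p = 0.517). Cish, the adaptor Shc1 and Sh2b1 followed with 0.82, 0.36 and 0.29 (limma adjusted p = 0.578, 0.578 and 0.589), and the difference of Cish was 0.13 without the hepatocyte-rich libraries. Of the IGF ligands, receptors and docking proteins, 0 of 12 had an unadjusted p under 0.05. The smallest p belonged to Insrr, a relative of the insulin receptor (difference 0.44 ± 0.21, SE; limma adjusted p = 0.524). The difference was 0.37 ± 0.19 (SE; limma adjusted p = 0.535) for Irs1, 0.33 for Pik3r1, a subunit of PI 3-kinase, and -0.32 for Igf2r, the clearance receptor of Igf2 (limma adjusted p = 0.556 and 0.638). Of the 10 kept regulators of Igfbp1, 2 had an unadjusted p under 0.05, against 10% of all genes, with Ppara, the fatty acid sensor of fasting, at a difference of 0.97 ± 0.33 (SE; limma adjusted p = 0.408). Ppargc1a, a coactivator of fasting genes, Foxo1 and Hnf4a had differences of 0.75, 0.41 and 1.76 (limma adjusted p = 0.492, 0.621 and 0.664). Hnf4a was at 6.10 to 8.54 in the hepatocyte-rich libraries and at 2.62 to 5.66 in the other eWAT libraries. Whether its difference comes from hepatocyte transcripts was not tested. Of the 4 kept GH-patterned transcription factors, 0 had an unadjusted p under 0.05. Bcl6, Onecut1, Trim24 and Tox had differences of -0.94, 0.72, 0.11 and -0.21 (limma adjusted p = 0.547, 0.623, 0.848 and 0.855). Without the hepatocyte-rich libraries those of Bcl6 and Onecut1 turned to 0.17 and -0.25.

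Of the 6 kept binding protein proteases and inhibitors, 2 had an unadjusted p under 0.05 in eWAT, against 10% of all genes. Stc1, a secreted inhibitor of Pappa, was at 6.98 to 7.64 in CT and at 4.82 to 6.84 in F1 fat, with separate groups (difference -1.06 ± 0.42, SE; limma adjusted p = 0.442), and the difference was -0.59 without F1 2. Mmp7, a protease that can cut binding proteins, was at 3.40 to 5.21 in CT fat and at 7.53, 8.18, 3.56 and 7.46 in F1 fat (difference 2.30 ± 0.92, SE; limma adjusted p = 0.445). Adam12 and Pappa, both proteases of binding proteins, had differences of 0.72 and 0.54 (limma adjusted p = 0.543 and 0.695), or 0.45 and 0.17 without F1 1. Of the binding protein relatives, 7 were kept, and the difference was -0.94 ± 0.34 (SE; limma adjusted p = 0.412) for Ccn3, 0.35 for Igfbp6, -0.24 for Igfbp5 and -0.30 for Ccn2 (limma adjusted p = 0.590, 0.659 and 0.671 for the last 3). For Ccn3 it was -1.68 without the hepatocyte-rich libraries.

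Whether the F1 difference depended on the tissue was tested as an interaction over the 16 libraries. None of the 9 genes passed, against 0.0823% of the 14578 genes tested, and 1 of 9 had an unadjusted p under 0.05, against 9.9%. That gene was Igfbp4, whose mean was higher in F1 than CT liver and lower in F1 than CT fat. Its liver difference exceeded its eWAT difference by 0.63 ± 0.22 (SE; limma adjusted p = 0.381). The interaction was -1.20 for Igfbp1 (95% interval -2.99 to 0.60) and 1.42 for Socs2 (95% interval -0.67 to 3.51). Of the genes around the axis, Irs1 had an interaction of -1.62 ± 0.33 (SE; limma adjusted p = 0.0897) and Stat3 of 1.35 ± 0.29 (SE; limma adjusted p = 0.101).

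Between the tissues of control offspring, Igfbp1 and Igfbp2 were higher and Igf1r was lower in liver than in eWAT. The deposited values appear to have been normalized separately in each tissue, so they were first quantile normalized over the 16 libraries, after which 5 of 9 members passed, against 66.7% of 15071 genes tested. The same 5 had an unadjusted p under 0.05, against 69.4%, and for 5 of 9 the groups did not overlap, against 61.2%. Of the 10050 genes that passed, 4964 were higher in liver. On the deposited values 2591 of 11045 were, and on values centred on each library's median 5697 of 9445. The median difference over all genes was 0.02 on the first scale, -0.85 on the deposited one and 0.32 on the centred one.

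Igfbp1 was 9.14 ± 0.47 (SE) higher in liver (limma adjusted p = 2.2e-08) and Igfbp2 5.69 ± 0.21 (SE) higher (limma adjusted p = 1.4e-09). On the deposited values the differences were 8.69 and 4.98, and on the centred ones 10.03 and 6.32. Igfbp1 stood at percentiles 95.3 to 97.3 of the CT livers and 24.5 to 50.4 of the CT fat libraries, with the hepatocyte transcripts given above in the higher ones. Igf1r was lower in liver, with a difference of -2.18 ± 0.26 (SE; limma adjusted p = 2.2e-05), or -3.51 on the deposited and -2.17 on the centred values. It stood at percentiles 49.1 to 57.0 in CT liver and 65.7 to 70.3 in CT fat.

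For Ghr and Igf1 the direction turned with the scaling. The difference for Ghr, liver minus eWAT, was -1.78 ± 0.15 (SE; limma adjusted p = 1.5e-06) after quantile normalization and -0.68 (limma adjusted p = 0.00199) on the deposited values. On the centred values it was 0.66 (limma adjusted p = 0.00462). Igf1 was at -0.24 ± 0.17 (SE; limma adjusted p = 0.241) after quantile normalization. It was 1.17 higher in liver on the deposited values (limma adjusted p = 9.3e-05) and 2.51 higher on the centred ones (limma adjusted p = 2.2e-07). Both genes lay above percentile 99.5 of each CT library of either tissue. No direction between the tissues was taken for either.

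**Figure D5:**
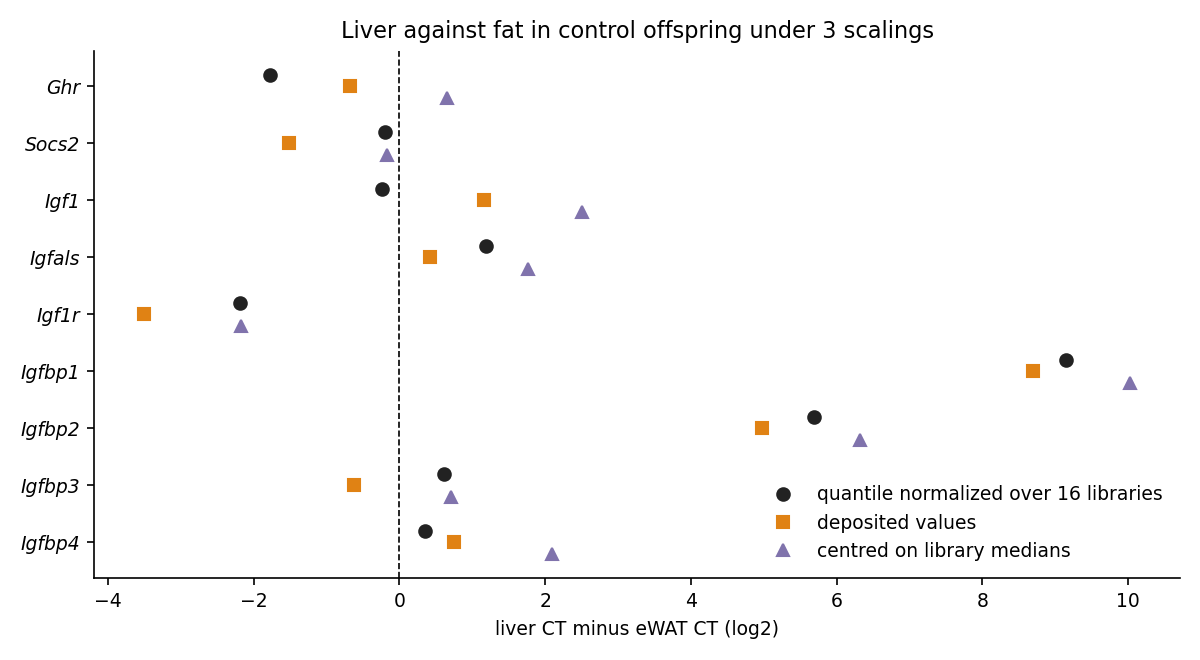
Difference in log2 expression between the CT livers and the CT eWAT libraries (horizontal axis) for the 9 genes, as computed on quantile normalized, deposited and median-centred values (symbols). Igfbp1, Igfbp2 and Igf1r keep their side of 0 on each scale, while Ghr runs from -1.78 to 0.66 and Igf1 from -0.24 to 2.51.

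Igfals was 1.19 ± 0.33 (SE) higher in liver (limma adjusted p = 0.00797), although the libraries overlapped, and the difference was 0.42 on the deposited values (limma adjusted p = 0.241). Igfbp3, at 0.62 ± 0.31 (SE; limma adjusted p = 0.103), was at -0.63 on the deposited values. Igfbp4 was at 0.35 ± 0.16 (SE; limma adjusted p = 0.0792) with separate groups, at 0.75 on the deposited values and at 2.09 on the centred ones, where it passed on both (limma adjusted p = 0.000987 and 6.1e-07). Socs2 was at -0.20 ± 0.49 (SE; limma adjusted p = 0.731) and at -1.51 on the deposited values (limma adjusted p = 0.0202). The relatives Igfbp5, Igfbp6 and Igfbp7 were lower in liver, with differences of -8.54, -6.99 and -3.28 (limma adjusted p = 7.9e-11, 6.5e-10 and 5.0e-08).

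On the deposited scale, on which the tissues appear to have been normalized separately, both liver groups had higher means than both eWAT groups for Igf1, Igfals, Igfbp1, Igfbp2 and Igfbp4, and lower means for Ghr and Igf1r. The libraries of the tissues did not overlap for these genes except Igfals, though for Ghr and Igf1 the direction turned with the scaling as given above. The CT and F1 groups of a tissue overlapped for each of the 9 genes. For Igfbp3 and Socs2 the tissues overlapped, and so did each pair of neighbours in the order of the group means.

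Genes whose levels followed a member most closely were listed as a description, by Pearson's r over the 8 libraries of a tissue. In liver they were Ints14, Nabp2 and Brd2 for Igfbp1 (r = 0.963, 0.947 and 0.937). For Igf1 they were Zyg11a, Tmem260 and Svs1 (r = 0.97, 0.968 and 0.96), and for Ghr Dclk2, Uck1 and Rcn1 (r = 0.932, 0.928 and 0.925). In eWAT they were Mcc, Dusp28 and Fcrlb for Igfbp1 (r = 0.951, 0.941 and 0.93). For Igf1 they were Synm, Mmaa and Cp (r = 0.963, 0.945 and 0.942), and for Ghr Ccr1, Coa5 and Pip5k1b (r = 0.956, 0.954 and 0.949). The points of a correlation share the tissue, and the libraries named above with transcripts of other tissues are among them. Each gene was picked for the highest r among the kept genes, so high values follow from the picking. Over the 8 livers Ghr ran only from 18.09 to 18.24.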

How the data were processed

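RNA of 16 samples in 4 groups was hybridised to Affymetrix arrays. The deposited values are log2 expression that the authors made by RMA with the Transcriptome Analysis Console 4.0, as the submitters' processing notes name it. Of the probe sets, 19572 had 1 symbol in the platform table and 2634 had none; 55 symbols had several probe sets, and the brightest was kept.

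The groups were compared in limma 3.58.1 (R 4.3.3; lmFit, eBayes) with Benjamini-Hochberg adjustment, checked on simulated data. A gene entered a fit if its mean reached the 25th percentile there. Each tissue was fitted alone, and the interaction over 16 libraries. Correlations over 8 libraries were tested over 40320 orders, two-sided (Python 3.11.15, scipy 1.17.1). Members, gene lists and tests were chosen with earlier results of these data known. Named were the 9 members, per list and tissue the 4 genes of smallest p and each that passed, and 3 genes by likeness. Cish, Foxa2, Sh2b1 and Elovl3 were also followed after their values were seen. Other filters, scalings, variance models, array weights, a replicate block and leaving out libraries were the alternatives. RefSeq annotates genes overlapping Ghr, Igf1, Igf1r, Igfals and Socs2, whose signal was not separated.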

Additional observations from a re-analysis of the deposited data

Results flagged for a closer look

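In 240 groups of 4 libraries, over 60 genes with the members among them, 17 groups had 1 library farther from the others than Dixon's test allows at 95%. Chance gives about 1 in 20. Among the 36 groups of members there was 1, Ghr in eWAT F1, with 19.25 in F1 1 against 18.88 to 18.90. In that library, which held seminal vesicle transcripts, Lepr was at 6.25 against 4.92 to 5.14 and Akt1 at 12.15 against 12.55 to 12.61.

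In liver, Irs2 was at 10.06 in F1 4 against 9.26 to 9.38, and Klk1 at 8.23 in F1 4, the library with pancreas transcripts. Igfbp7 was at 12.41 in CT 4 against 12.03 to 12.05, and Igfbp5 at 6.41 in F1 2 against 5.50 to 5.61. Trim24 was at 11.19 in CT 2 against 10.39 to 10.46 and at 12.18 in F1 3 against 10.54 to 10.64.

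In eWAT CT, CT 4 stood apart for Igfbp5 (15.02 against 15.39 to 15.46), Adam12 (10.48 against 9.38 to 9.53) and Atp6v0d2 (13.61 against 10.89 to 11.32). CT 2 stood apart for Ccn2 (12.13 against 11.24 to 11.36) and Foxo3 (9.36 against 10.38 to 10.53), and CT 1 for Foxo1 (11.92 against 12.70 to 12.86). In eWAT F1, Mmp7 was at 3.56 in F1 3 against 7.46 to 8.18, and Stc1 at 4.82 in F1 2 against 6.51 to 6.84.

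The difference between F1 and CT depended on the tissue for Moxd1, a GH-patterned liver gene, by a test of the interaction (6.95, limma adjusted p = 0.000109).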

How the results depend on the processing

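In the father comparisons and the interaction, no member passed under any of the alternatives run. In the tissue comparison 4 to 7 of 9 did, where 66.7% of all genes passed in the main fit and that share too moved with the scaling. In liver, where 23 genes passed, the count was 75 with a trended, robust variance, 51 with 16 libraries in 1 fit, 6 with the replicate block, 9 without the livers with muscle transcripts (chosen after seeing the data) and 7 to 24 with 1 library left out. In eWAT it was 24 with 16 libraries in 1 fit (0 members) and 0 to 1 with 1 library left out. For the interaction, with 12 genes, it was 38 with a trended, robust variance, 7 with the replicate block and 7 to 26 with 1 library left out. By the criterion used, an r over 0.1 in every pair, replicate numbers did not pair the samples: same-numbered libraries correlated at -0.0574 to 0.0553 between the liver groups and -0.308 to 0.215 between the eWAT groups. Whether a liver and a fat library share an animal is not stated in the labels. Between the tissues, same-numbered libraries correlated at 0.00993 to 0.0435 in CT, with 2 of 4 highest with their own number, and at 0.0312 to 0.0516 in F1, with 4 of 4, which is a hint from the data and not the design.

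Some differences of members that had not passed turned sign (those of other genes stand beside their values). In liver, Ghr was at 0.0011 after quantile normalization, and Igf1r at 0.0925 without the livers with muscle transcripts and at -0.29 to 0.13 with 1 library left out. In eWAT, Igfbp1 was at 0.33 and Igfbp2 at -0.245 without the hepatocyte-rich libraries (chosen after seeing the data). With 1 eWAT library left out Igfbp1 ran from -0.93 to 0.175, Igfbp2 from -0.048 to 0.395 and Igfals from -0.34 to 0.09. The interaction of Igf1 ran from -0.195 to 0.037. Between tissues, Ghr was at 0.66 and Igf1 at 2.51 on centred values, Igf1 at 1.17 and Igfbp3 at -0.63 on deposited values, and Socs2 at -0.64 to 0.24 with 1 library left out. The causes were not tested. Ghr and Igf1 lie near the top of the scale, which limits what their differences can show.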

Other observations

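Genes whose liver level differs between the sexes under the pattern of GH release were counted from lists chosen with earlier results of these data known. A share above that of all genes may follow from that choice, so the counts are a description and not a test. Of 17 male-biased genes kept in liver, 2 rose in F1 and 0 fell, against 0.157% of all genes passing in either direction. By their means 10 were higher and 7 lower in F1, and at an unadjusted p under 0.05 there were 7 higher and 1 lower (9.15% of all genes in either direction). Among the counted genes, Serpina1e was at 19.93, the highest value in the table, in each F1 liver. Mup3 was at 19.75 to 19.83 and Mup20 at 19.59 to 19.77 over the livers, which limits what their differences can show. Moxd1 went from 4.96 to 6.97 in CT to 13.35 to 14.92 in F1 livers, and Selenbp2 from 12.44 to 14.47 in CT to 15.72 to 15.82 in F1 (limma adjusted p = 6.8e-05 and 0.0334). Moxd1 passed in 17 of 17 alternative fits and Selenbp2 in 8 of 17, its adjusted p being 0.217 without the livers with muscle transcripts. C6, a complement component of the same list, was at 16.45 to 17.19 in CT and 17.57 to 18.22 in F1 livers (limma adjusted p = 0.0670), and Cyp7b1 had a difference of 1.09 (limma adjusted p = 0.293). Elovl3 had the largest fall of the list, with a difference of -1.48. It was at 17.59 to 18.19 in CT and 14.91 to 17.12 in F1 livers, with separate groups, and did not pass. Of 15 female-biased genes 0 passed, and 7 had a higher and 8 a lower mean. At an unadjusted p under 0.05 there were 4, of which 1 was higher and 3 were lower, against 9.15% of all genes. Acot3 had a difference of -1.12 ± 0.23 (SE; limma adjusted p = 0.122), and Cyp2b9, Cyp3a41a and Atp6v0d2 of -1.17, -0.47 and 1.08 (limma adjusted p = 0.448, 0.511 and 0.513).

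In eWAT, 17 of 17 male-biased genes had a higher mean in F1, with a median difference of 1.09 against -0.0025 over all genes, and 0 passed (6 at an unadjusted p under 0.05, against 10% of all genes). The hepatocyte list median was 7.17 to 14.09 in CT and 11.29 to 15.52 in F1 fat. It stayed higher in F1 among the libraries left when the hepatocyte-rich ones were set aside, as given above. The 4 genes of smallest p, C6, Nudt7, Selenbp2 and Moxd1, had differences of 1.11, 0.58, 0.86 and 1.11 (limma adjusted p = 0.366, 0.392, 0.408 and 0.408), and 0.55, 0.57, 0.58 and 0.40 without the 4 hepatocyte-rich libraries. Of 12 female-biased genes kept in eWAT 0 passed, 7 had a higher and 5 a lower mean, and the median difference was 0.09. At an unadjusted p under 0.05 there were 3, of which 1 was higher and 2 were lower, against 10% of all genes. Sult1e1, an estrogen sulfotransferase, was at 11.26 to 11.65 in CT and 12.01 to 12.62 in F1 fat, with separate groups (difference 0.85 ± 0.18, SE; limma adjusted p = 0.357), and it passed in 1 of 17 alternative fits. Sult3a1, Atp6v0d2 and Cyp3a44 had differences of -0.52, -1.90 and 0.95 (limma adjusted p = 0.442, 0.465 and 0.509).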
